A study of Mus musculus with 16 samples.

Results

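Group 2 innate lymphoid cells (ILC2) lacking the cytokine IL-25 were compared with ILC2 lacking ST2, the receptor of IL-33, using the 4 Il25 KO and the 4 St2 KO libraries, 8 of the 16 libraries of the series. Members were taken from the sample titles. All libraries were made from ILC2 sorted from the duodenum of untreated C57BL/6 mice aged 6 to 10 weeks. Il25 KO mice were Il25 (-/-) with Arg1 Yarg/Yarg and Il13 smart13/smart13, and St2 KO mice were St2 (-/-) with the same alleles at Arg1 and Il13. Yarg and Smart13 are reporter alleles, so neither genotype is unmodified at these loci, and by label the knockouts differ from each other only at Il25 and at Il1rl1, the gene of ST2. WT mice (Il13 smart13/smart13) and Alox5 KO mice (Alox5 (-/-) with Il13 smart13/smart13), 4 libraries each, entered the same model and lack the Yarg allele. The sources used here do not give the sort gate or which animals gave which library. The p-values therefore describe the spread among libraries, which may be partly technical.

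IL-25 is made by tuft cells of the intestinal epithelium and is sensed by ILC2 through a receptor that contains IL17RB. IL-33 is released by stromal and epithelial cells and is sensed through ST2, the product of Il1rl1, which signals through the adaptor MyD88 and IRAK kinases to the transcription factor NF-kB and to the MAP kinases that raise AP-1. Both cytokines are known as activators of ILC2, which respond with type 2 cytokines such as IL-5 and IL-13. NF-kB is held in check by inhibitor proteins whose own genes it induces, so the levels of these genes are a common readout of the pathway.

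Total gene counts of the 8 libraries ranged from 2455245 to 3216937 with a median of 2779517. The labels' sample codes put replicates 1 and 2 of both genotypes in set TS and replicates 3 and 4 in set TY. By their counts of Xist (982 to 1682) and Ddx3y (at most 2) the TY libraries read as female, and by the same genes (at most 1 and at least 889) the TS libraries read as male, so set and sex cannot be told apart. Levels are depth-scaled counts (CPM, the count of a gene per 1e6 scaled counts of its library), not scaled for gene length, and are listed for replicates 1 to 4. Where a type of cell is fewer or holds less RNA per cell, bulk libraries give the same value, and the cases cannot be told apart. Log2 fold changes are Il25 KO over St2 KO from the edgeR quasi-likelihood fit with code set as a term, given ± an approximate SE. This SE is the absolute log2 fold change divided by the square root of its F statistic, and is rough for genes near 0 counts in a genotype. A gene was called at a Benjamini-Hochberg adjusted p under 0.05 over the 11742 genes tested.

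The targeted genes gave no check of the labels. Il25 had 0 counts in all 16 libraries. Il1rl1 (ENSMUSG00000026069, GRCm38 chromosome 1, 40429570 to 40465415) had 257, 440.3, 254 and 209 CPM in Il25 KO, against 197, 157, 209 and 124 CPM in St2 KO, with Il25 KO 4 at the level of St2 KO 3. The difference did not pass (log2 fold change 0.74 ± 0.219, edgeR adjusted p = 0.141). A count over all exons does not show whether part of the gene was removed. The shared reporter genes did not separate the genotypes: Arg1, which encodes arginase 1, had 16.5 to 24.5 CPM in Il25 KO, against 12.5 to 31.0 CPM in St2 KO, and Il13 had 2.54 to 8.45 and 1.52 to 10.6 CPM.

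The labelled cell type was checked on 18 ILC2 genes, all of which were detected and tested. Gata3, the master transcription factor of ILC2, had 576 to 698 CPM in Il25 KO, against 561 to 685 CPM in St2 KO. Il7r, the receptor chain for IL-7, had 1105 to 1342 and 978 to 1271 CPM, and Il17rb, the IL-25 receptor chain, 902 to 1067 and 857 to 904 CPM. None of the 18 was called, and their median log2 fold change was 0.091 against -0.0111 over all tested genes. The ranges of Il17rb overlapped by a narrow margin, and its log2 fold change of 0.15 ± 0.0589 did not pass (edgeR adjusted p = 0.291). Id2, a transcriptional regulator that all innate lymphoid cells need, came closest to the threshold (log2 fold change 0.38 ± 0.0948, edgeR adjusted p = 0.0573), followed by Il2ra, the high-affinity chain of the IL-2 receptor (0.38 ± 0.103, edgeR adjusted p = 0.0871).

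Several libraries stood apart in markers of other cells. Il25 KO 2 and 3 had a summed 122 and 130.1 CPM over 15 macrophage and dendritic cell markers, against 18.7 to 34.1 CPM in the 6 others. Most of it came from Zbtb46 and Xcr1, the 2 markers that passed the count filter, while Mrc1 and Cd209a were at 0 in all 8 and Csf1r at no more than 1.44 CPM. Il25 KO 1 had 364 CPM over 17 epithelial markers, against 17.5 to 42.2 CPM in the 7 others, with Krt8 at 76.1 and Krt19 at 84.4 CPM. St2 KO 1 had 1234 CPM over 17 B and plasma cell markers, against 2481 to 3603 CPM. Markers of T cells summed to 712 to 928 CPM in the 8, so transcripts of genes on this list were present in each library. Which cells they came from was not tested. Of the 12 markers 8 passed the count filter, among them Cd3e and Lat. Cd8b1 was at 0 in all and Cd4 at no more than 1.09 CPM. Of 15 eosinophil, mast cell and neutrophil markers 10 were at 0 in all 8 libraries, and of 13 stromal and endothelial markers 8. The part of these libraries in the results was not tested, but counts were also made without Il25 KO 2 and 3, and without Il25 KO 1 and St2 KO 1, both chosen after seeing the data.

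The knockouts differed in 146 of 11742 tested genes (1.24%). Of these, 100 were higher in Il25 KO (0.852%) and 46 lower (0.392%). By adjusted p, Zfp36, Nfkbiz and Lgals3 led the named genes of the higher group, and Cd28 led the lower group. The fold changes of the higher genes had a median of 1.31 on the log2 scale, 66 of them at 1 or more, and those of the lower genes a median of -1.51, 31 of them at -1 or less. Leaving aside 5 called genes with 3 or fewer counts over the 4 libraries of a genotype together, the values ran from -5.59 for Fn3krp, which encodes a deglycating kinase, to 5.41 for Lgals3, which encodes the carbohydrate-binding protein galectin 3. Fn3krp is named here as the extreme, after its value was seen. With genes of few counts set to the bound of their counting interval, both medians were the same. The 4 libraries of one genotype all lay above the 4 of the other in 134 of the 146, and in 5.87% of all tested genes.

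Single libraries decided part of the calls. Of the 146 genes, 62 were called in each of the 16 fits that left out 1 library, 44 of them higher and 18 lower. The number called was 85 without Il25 KO 2, 81 without Il25 KO 3, 80 without St2 KO 2 and 84 without St2 KO 4, and 69 without both Il25 KO 2 and 3, of which 56 were among the 146. It was 147 without Il25 KO 1 and St2 KO 1, of which 105 were among the 146. The fit without Il25 KO 2 and 3 shrinks the Il25 KO group only. Calls lost in it may come from fewer libraries or from which libraries left, and these cannot be told apart. No gene of the 146 changed sign in any of the 29 alternative fits.

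**Figure D1:**
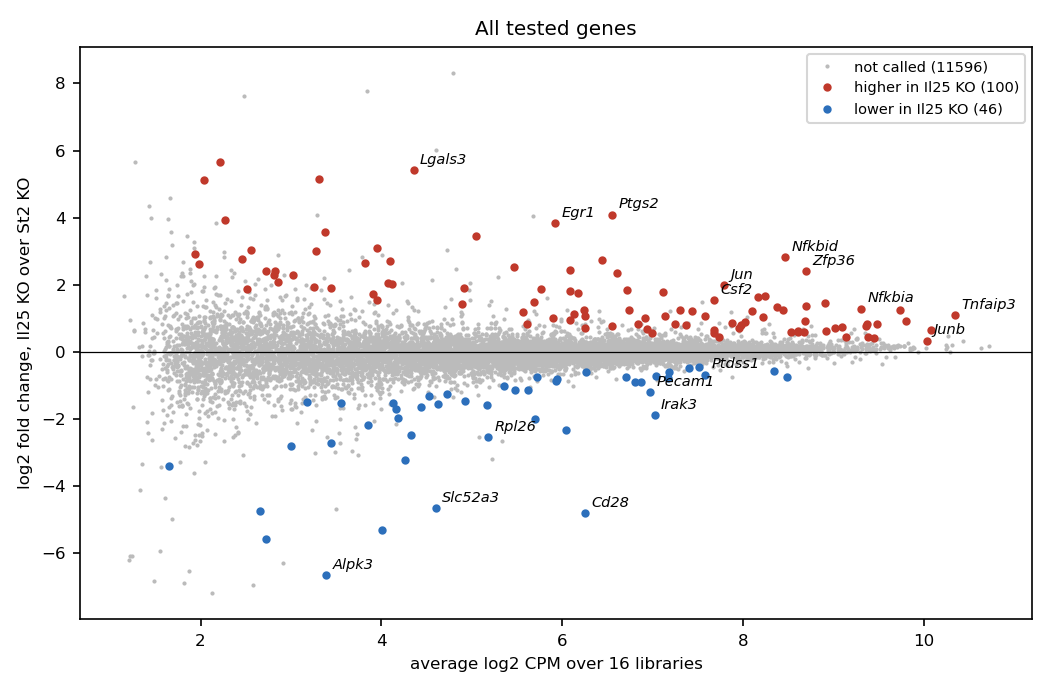
Log2 ratio of Il25 KO to St2 KO (vertical) against average log2 CPM over the 16 libraries (horizontal) for the 11742 tested genes, with 100 called higher in red and 46 called lower in blue. Zfp36, Nfkbid and Egr1 lie above 0 and Cd28 below it at -4.80.

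Genes that NF-kB induces, many of which act back on NF-kB, formed the largest called group. Of 24 tested members of the list of NF-kB inhibitors and targets, 9 were called higher and 0 lower, against 0.852% and 0.392% of all tested genes. In this list 22 had a log2 fold change above 0, and the median was 0.698 against -0.0111 over all tested genes. All 9 had non-overlapping groups, as had 94 of all 100 higher called genes. Of the 9, 8 were called in every fit with 1 library left out, and 6 were called without Il25 KO 2 and 3. The smallest adjusted p-values in the list were those of Nfkbiz, Nfkbid, Nfkbia and Tnfaip3. RefSeq promoter windows on GRCm38.p6, from 250 bases before to 50 bases after the annotated start, are shown for 3 of them and for Fosb, an AP-1 gene, as called genes whose windows hold matches to the NF-kB site. Each is written 5′ to 3′ on the gene's own strand, and capitals mark matches to the kappaB consensus on either strand. The consensus searched was GGGRNNYYCC, where R is A or G, Y is C or T and N is any base.
Nfkbia: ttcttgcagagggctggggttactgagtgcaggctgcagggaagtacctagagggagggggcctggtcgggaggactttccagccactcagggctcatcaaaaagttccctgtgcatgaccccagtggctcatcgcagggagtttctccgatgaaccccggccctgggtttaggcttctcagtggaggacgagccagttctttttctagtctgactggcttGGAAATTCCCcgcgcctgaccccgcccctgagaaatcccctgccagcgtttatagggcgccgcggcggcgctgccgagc
Nfkbid: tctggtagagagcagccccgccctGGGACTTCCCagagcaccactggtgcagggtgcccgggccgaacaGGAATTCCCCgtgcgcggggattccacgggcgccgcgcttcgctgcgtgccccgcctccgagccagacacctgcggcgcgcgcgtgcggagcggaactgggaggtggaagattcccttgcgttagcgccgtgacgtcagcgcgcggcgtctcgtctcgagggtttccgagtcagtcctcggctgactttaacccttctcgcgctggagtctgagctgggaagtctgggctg
Tnfaip3: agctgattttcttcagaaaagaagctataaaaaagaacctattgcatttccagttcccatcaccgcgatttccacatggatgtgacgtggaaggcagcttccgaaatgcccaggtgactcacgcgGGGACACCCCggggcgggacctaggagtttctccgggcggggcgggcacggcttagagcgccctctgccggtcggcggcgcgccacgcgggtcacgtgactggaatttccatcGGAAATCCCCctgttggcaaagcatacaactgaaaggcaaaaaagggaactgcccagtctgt
Fosb: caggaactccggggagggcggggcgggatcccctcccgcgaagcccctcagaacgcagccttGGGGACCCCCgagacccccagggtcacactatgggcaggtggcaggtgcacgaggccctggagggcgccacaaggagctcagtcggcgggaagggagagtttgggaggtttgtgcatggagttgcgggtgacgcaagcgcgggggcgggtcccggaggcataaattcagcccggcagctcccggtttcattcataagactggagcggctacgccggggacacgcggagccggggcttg

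The windows lie at chr12:55492598-55492897 (minus strand) for Nfkbia, chr7:30422156-30422455 (plus strand, the second of 3 windows of the gene) for Nfkbid, chr10:19015361-19015660 (minus strand, the first of 2 windows) for Tnfaip3 and chr7:19309996-19310295 (minus strand) for Fosb. The first base of a match is 29 bases before the start in Nfkbia, 181 and 226 in Nfkbid, 12 and 125 in Tnfaip3 and 188 in Fosb. Among the 64 higher called genes with a window, 20 held a match (31.2%), against 4 of 32 lower called genes (12.5%) and 1045 of 8650 tested genes (12.1%). In the list of NF-kB inhibitors and targets, whose members were picked as NF-kB genes, it was 11 of 21 (52.4%). The AP-1 motif TGANTCA was found in 4.69% of the higher genes and 5.64% of tested genes, and the cyclic AMP response element TGACGTCA in 7.81% and 3.9%. Both strands were searched, and neither of these motifs contains the other. Lgals3 and Nr4a1, whose windows are not shown, each held 1 match, with its first base 70 and 3 bases before the start. The other windows of Nfkbid and Tnfaip3 held none. Zfp36, Gadd45b, Csf2, Ier5, Jun, Btg2 and Traf1 had no kappaB match in their windows. No window was examined for Nfkbiz, Egr1, Gem and Cd69. A match describes letters in a window and is not a measured site.

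Nfkbia (ENSMUSG00000021025, chromosome 12, 55489410 to 55492647), which encodes the inhibitor IkB-alpha, had 687, 792, 809 and 662 CPM in Il25 KO, against 294, 295, 303 and 313 CPM in St2 KO. The St2 KO libraries were close to each other and all Il25 KO libraries were more than double their level, as were those of WT (684 to 754 CPM). The log2 fold change was 1.29 ± 0.0929 (edgeR adjusted p = 6.83e-08).

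Nfkbid (ENSMUSG00000036931, chromosome 7, 30421732 to 30428746), which encodes a nuclear IkB protein, had 468, 622, 573 and 435 CPM in Il25 KO, against 63.3, 59.1, 66.1 and 111 CPM in St2 KO. It had the largest fold change of the list's called genes, 2.81 ± 0.186 (edgeR adjusted p = 1.96e-08), and the highest St2 KO library, replicate 4, was still far below the lowest Il25 KO library. Nfkbiz (chromosome 16, 55811375 to 55838899), which encodes the nuclear IkB-zeta, had 1037, 1216, 1116 and 978 CPM in Il25 KO, against 469, 437, 450.2 and 461 CPM in St2 KO. Its groups did not overlap, and the log2 fold change was 1.26 ± 0.0781 (edgeR adjusted p = 9.70e-09).

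Tnfaip3 (chromosome 10, 19000910 to 19015657) encodes A20, a ubiquitin-editing enzyme that ends NF-kB signalling. It had 1471, 1856, 1852 and 1480.3 CPM in Il25 KO, against 866, 705, 870.0 and 666 CPM in St2 KO. All Il25 KO libraries were above all St2 KO libraries, with replicates 2 and 3 the highest (log2 fold change 1.10 ± 0.109, edgeR adjusted p = 6.48e-06). Tnfaip3 lies 5.91 Mb from Arg1, whose alleles both genotypes share by label.

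The signalling adaptor gene Traf1 had 348, 682, 552 and 301 CPM in Il25 KO, against 188, 174, 190.2 and 192 CPM in St2 KO. Replicates 2 and 3 of Il25 KO were again the highest, while the 4 St2 KO libraries lay within a narrow range (1.33 ± 0.21, edgeR adjusted p = 0.00206). Mir155hg, the host gene of the immune microRNA miR-155, had 50.9, 150.2, 63.6 and 45.3 CPM against 24.2, 8.83, 14.0 and 10.2 CPM (2.44 ± 0.405, edgeR adjusted p = 0.00233), with Il25 KO 2 far above the rest. The subunit gene Nfkb1 (0.66) and the apoptosis inhibitor gene Birc3 (0.58) were higher by smaller amounts. The calls of Nfkb1, Birc3 and Mir155hg were each lost without Il25 KO 2 and 3.

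Members that did not pass include the other NF-kB subunits and several classical targets. Rel had 197, 445, 269 and 242 CPM in Il25 KO, against 127, 96.5, 171 and 168 CPM in St2 KO, with no overlap between the groups, and missed the threshold (1.05 ± 0.299, edgeR adjusted p = 0.143). Relb, Nfkb2 and Rela, the last from the upstream list, had log2 fold changes of 0.26, 0.41 and 0.56. Tnf was low in both, at 3.46 to 8.90 and 0.673 to 10.0 CPM, and Cyld and Tnip1, further negative regulators, had values of -0.11 and -0.08.

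Genes for the proteins between receptor and NF-kB were called in both directions. Of 15 tested upstream kinases and adaptors, 2 were called higher, 1 lower and 12 not, where 1.24% of all tested genes were called, with a median of -0.0574. Myd88 had 126 to 148 CPM in Il25 KO, against 116 to 156 CPM in St2 KO, and Ikbkb, a catalytic subunit of the IkB kinase, 296 to 371 and 321 to 363 CPM. Neither difference passed (log2 fold changes of -0.02 ± 0.124 and -0.07 ± 0.0964).

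Map3k8, which encodes the kinase TPL2 that couples NF-kB to ERK, had 114, 185, 164 and 107 CPM in Il25 KO, against 43.1, 29.8, 33.8 and 50.4 CPM in St2 KO. Every Il25 KO library was at more than double the highest St2 KO library (1.85 ± 0.229, edgeR adjusted p = 0.000105). Map3k14, the kinase of the alternative NF-kB pathway, was called with a fold change of 0.93 ± 0.223 and overlapping groups (edgeR adjusted p = 0.0461), a call that 9 of the 16 fits lacking a library lost. Irak3 (chromosome 10, 120141648 to 120202130), which encodes the inhibitory kinase IRAK-M of the IL-1 receptor family pathway, went the other way, with 26.0, 45.0, 42.4 and 69.2 CPM in Il25 KO, against 75.1, 147, 179 and 287 CPM in St2 KO. All Il25 KO libraries were below all St2 KO libraries, replicate 1 was the lowest and replicate 4 the highest of each genotype, and the log2 fold change was -1.89 ± 0.294 (edgeR adjusted p = 0.0015).

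AP-1 is a dimeric factor of Fos, Jun, ATF and Maf proteins that growth factor and cytokine signals induce rapidly. Of 12 tested AP-1 family members 7 were called higher in Il25 KO, where 0.852% of all tested genes were, and 0 lower. The 5 others did not pass, 1 of them below 0, and the median log2 fold change was 0.896. All 7 called members had groups that did not overlap, as had 94 of all 100 higher called genes. Of the 7, 3 (Fosb, Jun and Jund) were called in every fit with 1 library left out and without Il25 KO 2 and 3.

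Fosb (chromosome 7, 19302696 to 19310051) had 340.4, 436, 567 and 400.2 CPM in Il25 KO, against 128, 134, 177 and 109 CPM in St2 KO. WT lay between them, at 217 to 298 CPM, and the log2 fold change between the knockouts was 1.66 ± 0.147 (edgeR adjusted p = 1.57e-06). Jun (chromosome 4, 95049034 to 95052222) had 354, 288, 358 and 315 CPM against 71.4, 145, 54.3 and 61.0 CPM, with St2 KO 2 above the 3 other St2 KO libraries but below every Il25 KO library (1.99 ± 0.22, edgeR adjusted p = 3.08e-05).

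Jund had 81.9, 125, 125 and 103 CPM in Il25 KO, against 32.0, 42.6, 53.6 and 55.2 CPM in St2 KO, again without overlap (1.25 ± 0.166, edgeR adjusted p = 0.000261). Atf3, a stress-induced member, had the largest AP-1 fold change among the called, 2.35 ± 0.451, a call lost without any 1 of St2 KO 1, 2 and 4. Maff had 1.12 ± 0.214, a call lost without Il25 KO 3, and the call of Fos was lost without Il25 KO 2, St2 KO 2, Il25 KO 3 and St2 KO 4. Of the called members Fos and Junb differed least. Fos had 758, 774, 853 and 754 CPM against 649, 563, 631 and 525 CPM (0.41 ± 0.0843). Junb had 1051, 1169, 1235 and 1044 against 935, 828, 969.8 and 833 CPM (0.34 ± 0.0811, edgeR adjusted p = 0.0494). Its call was lost in 12 of the 16 fits lacking a library. Batf and Fosl2 did not pass, with values of 0.28 and 0.67.

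Of 12 tested EGR, NR4A and related immediate early genes, 5 were called higher and 0 lower, against 0.852% and 0.392% of all tested genes. In this list 10 had a log2 fold change above 0 and 2 below it, and the median was 0.706. Egr1, a zinc finger factor driven by ERK signals, had 104, 131, 202 and 91.0 CPM in Il25 KO, against 3.70, 8.53, 5.14 and 18.7 CPM in St2 KO. The lowest Il25 KO library was above 90 CPM and the highest St2 KO library, replicate 4, below 19, with WT between at 23.9 to 54.9 CPM (3.84 ± 0.425, edgeR adjusted p = 2.92e-05).

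Nr4a1, an orphan nuclear receptor gene, had 961, 1140.0, 1201 and 914 CPM in Il25 KO, against 534, 459.5, 661 and 581 CPM in St2 KO (0.92 ± 0.1, edgeR adjusted p = 2.27e-05). Ier5 had 338, 487, 450.0 and 284 against 121, 168, 118 and 97.1 CPM (1.63 ± 0.169, edgeR adjusted p = 1.36e-05), and the antiproliferative gene Btg2 807, 969.8, 929 and 742 against 519.7, 443, 496 and 478 CPM (0.83 ± 0.098). In each of these 3 genes the groups were separate. Ier2 was called (0.58) but lost without any 1 of Il25 KO 2, Il25 KO 3, St2 KO 2 and St2 KO 4, and Nr4a2 (0.50) and Nr4a3 (1.19, edgeR adjusted p = 0.0602) did not pass. Of 12 heat shock chaperone genes 0 were called (median 0.0532, smallest edgeR adjusted p = 0.0582 for Hspe1).

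Factors that remove mRNA with AU-rich or stem-loop elements, among them cytokine mRNA, were called in both directions, 2 higher and 1 lower of 10 tested (median 0.132). The shares over all tested genes were 0.852% and 0.392%. Zfp36 (ENSMUSG00000044786, chromosome 7, 28376784 to 28380253), which encodes tristetraprolin, had 523, 553, 562 and 521 CPM in Il25 KO, against 68.7, 126, 95.1 and 113 CPM in St2 KO. The Il25 KO libraries lay close together and within or near the WT range (457 to 554 CPM), and every St2 KO library was at less than 0.25 of the lowest of them. Its log2 fold change was 2.41 ± 0.133 and its adjusted p equal to the smallest in the fit (edgeR adjusted p = 2.39e-09). The related genes Zfp36l1 and Zfp36l2 had 0.19 and 0.05 and did not pass. Zc3h12a, which encodes the RNase regnase-1, had 59.5, 128, 129 and 142 CPM against 26.3, 18.9, 52.5 and 34.1 CPM, with Il25 KO 1 below its 3 partners (1.82 ± 0.259, edgeR adjusted p = 0.000508). Its relative Zc3h12c was lower in Il25 KO (-1.14), with a call that 6 of the 16 fits lacking a library lost, as did the fit without Il25 KO 2 and 3.

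Of 11 tested type 2 cytokines and effectors 1 was called, Csf2 (median 0.281), where 0.852% of all tested genes were called higher. Csf2 (chromosome 11, 54247271 to 54249667), which encodes the growth factor GM-CSF, had 209, 249, 226 and 179 CPM in Il25 KO, against 50.8, 76.1, 86.7 and 83.1 CPM in St2 KO, and 247 to 277 CPM in WT. The 4 Il25 KO libraries were each at more than double the highest St2 KO library, with 1.54 ± 0.152 on the log2 scale (edgeR adjusted p = 6.48e-06). Csf2 lies 0.616 Mb from Il13, whose Smart13 allele all mice carry.

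The signature cytokine Il5 had 18.0, 177, 56.4 and 41.3 CPM in Il25 KO, against 22.6, 19.5, 74.9 and 92.7 CPM in St2 KO. The highest and the lowest library were both Il25 KO libraries, so the groups overlapped, and the difference of 0.54 ± 0.661 was not called (edgeR adjusted p = 0.835). Il4 had 236 to 247 CPM in Il25 KO, against 202 to 278 CPM in St2 KO, and was not called. Areg, which encodes the repair factor amphiregulin, had 63.8, 373, 239 and 139 against 43.1, 69.1, 68.7 and 109 CPM and did not pass (1.49 ± 0.45, edgeR adjusted p = 0.184). Il9 had 4.33, 13.1, 21.6 and 0.363 CPM in Il25 KO and 0 counts in every St2 KO library, and was not called (edgeR adjusted p = 0.271).

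Among 13 tested eicosanoid genes 1 was called, where 1.24% of all tested genes were. This was Ptgs2 (chromosome 1, 150100031 to 150108227), the inducible cyclooxygenase of prostaglandin synthesis. It had 136, 184, 159.8 and 40.2 CPM in Il25 KO, against 9.76, 12.2, 5.14 and 2.73 CPM in St2 KO, with Il25 KO 4 at less than 0.5 of the level of its partners but above every St2 KO library (4.09 ± 0.492, edgeR adjusted p = 0.000167). WT had 102 to 158 CPM. Cd69, an activation marker that retains lymphocytes in tissue by opposing the exit receptor S1PR1, had 339.7, 342, 356 and 301 CPM in Il25 KO, against 95.9, 122, 124 and 238 CPM in St2 KO. St2 KO 4 stood above the 3 other St2 KO libraries, and all Il25 KO libraries were higher still (1.23 ± 0.177, edgeR adjusted p = 0.000599).

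Of 7 tested chemokine genes 2 were called higher, against 0.852% of all tested genes. They were Ccl1 (2.54 ± 0.527, edgeR adjusted p = 0.0207) and Cxcl10 (1.07 ± 0.197, edgeR adjusted p = 0.00664), and the median of the list was 1.59. Ccl1, a ligand of CCR8, had 37.5, 73.0, 112 and 33.7 against 4.71, 10.0, 10.7 and 17.7 CPM. Both calls were lost without Il25 KO 2 and 3, the libraries with more dendritic cell markers. Cxcl1, a neutrophil attractant, had 54.5, 14.98, 36.9 and 59.1 CPM in Il25 KO and a single count in 1 of the 4 St2 KO libraries, and did not pass (edgeR adjusted p = 0.116).

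Survival and metabolic genes contributed few calls per list, where 1.24% of all tested genes were called. Gadd45b, an NF-kB-induced stress gene, had 526, 675, 645 and 491 CPM in Il25 KO, against 187, 214, 240.2 and 211 CPM in St2 KO, without overlap (1.46 ± 0.118, edgeR adjusted p = 4.22e-07). It was the 1 called of 11 tested growth arrest and stress genes, and Gadd45a (-0.13) and Ddit3 (0.21) were not called. Of 18 STAT5 targets and SOCS genes the kinase genes Pim1 (1.86 ± 0.276, edgeR adjusted p = 0.000811) and Pim3 (0.56) were called. Bcl2 and Cish had 0.15 and 0.29 and did not pass. Odc1, the first enzyme of polyamine synthesis (0.68), Dgat1, which makes triglyceride (0.62), the epithelial-binding integrin gene Itgae (1.94), the phosphatase gene Dusp8 (2.99) and the ILC2 factor gene Bhlhe40 (0.78) were each the only called gene of their list. All 5 calls were lost without Il25 KO 2 and 3.

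The small GTPase gene Gem, named by its rank and in no list, had 752, 973, 730.1 and 617 CPM in Il25 KO, against 497, 450.4, 403 and 375 CPM in St2 KO (0.83 ± 0.1, edgeR adjusted p = 8.27e-05). Its groups did not overlap and its call held in every fit with 1 library left out. Of 29 interferon response genes 3 were called higher: Irf1 (0.61 ± 0.0986), which encodes a transcription factor that NF-kB and interferon both induce, Isg15 (0.75) and Ifi27l2a (edgeR adjusted p = 0.00567). The share called higher over all tested genes was 0.852%. The list's median was 0.0375, and Gbp4 (-0.22) and Irgm1 (-0.01) were among the 26 that did not pass. Irf1 and Isg15 lost their calls without Il25 KO 2 and 3. Isg15 also lost its call without any 1 of Il25 KO 2, St2 KO 1, St2 KO 2, Il25 KO 3 and St2 KO 4, and Ifi27l2a without St2 KO 4.

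**Figure D2:**
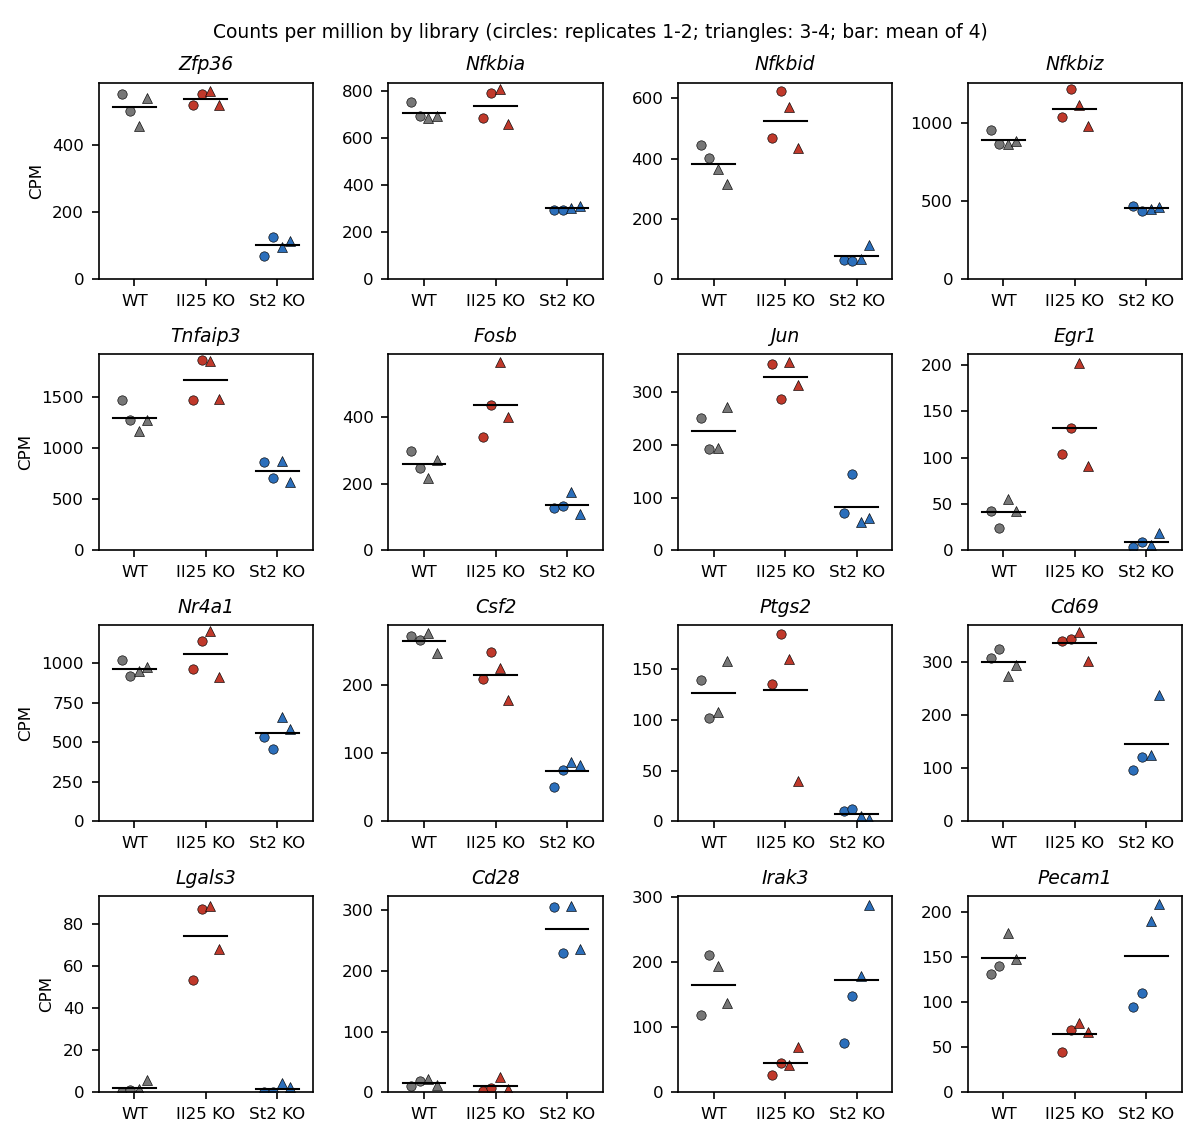
Depth-scaled counts (CPM, linear axes from 0) of 16 called genes in WT, Il25 KO and St2 KO, 1 point per library, with circles for replicates 1 and 2, triangles for replicates 3 and 4, and a bar at the mean of 4. The St2 KO points lie below all Il25 KO points in the first 13 panels and above them in Cd28, Irak3 and Pecam1.

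The lower gene of smallest adjusted p was Cd28. Cd28 (ENSMUSG00000026012, chromosome 1, 60716800 to 60773359) encodes the costimulatory receptor of T cells. It had 2.89, 6.53, 25.9 and 5.44 CPM in Il25 KO, against 305, 230.2, 308 and 236 CPM in St2 KO. The 4 St2 KO libraries stood apart from all 12 others of the series, in which WT had 10.5 to 22.0 and Alox5 KO 0 to 4.32 CPM. The log2 fold change was -4.80 ± 0.287 (edgeR adjusted p = 2.39e-09), and the call held in every fit with 1 library left out and in each code set alone. Of the 10 other tested genes of the CD28 family and checkpoint list none was called. Icos, a costimulatory receptor of the same family, had 614, 735, 776 and 625 CPM against 994, 818, 955 and 760.0 CPM (-0.36 ± 0.117, edgeR adjusted p = 0.188). Of 8 tested T cell markers 0 were called (median -0.249), with Cd3e at -0.34 and Lat at 0.23.

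Pecam1, an adhesion receptor of endothelium and leukocytes, had 44.4, 68.8, 77.1 and 66.3 CPM in Il25 KO, against 94.9, 109.6, 189 and 209 CPM in St2 KO. Its TY libraries were higher than its TS libraries in St2 KO, the groups did not overlap, and WT was at 131 to 176 CPM (-1.20 ± 0.156, edgeR adjusted p = 0.000182). Pecam1 lies 343 kb from Cd79b, which encodes a chain of the B cell receptor and was also lower (-0.61 ± 0.13, edgeR adjusted p = 0.0229). Cd79b had overlapping groups and a call lost without any 1 of Il25 KO 1, St2 KO 2, Il25 KO 3, Il25 KO 4 and St2 KO 4, and the other B and plasma cell markers were not called.

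Alpk3, a kinase-like gene, had 1 count in the 4 Il25 KO libraries together and 168 in the 4 St2 KO libraries, a depth-scaled ratio of 148.1 (95% counting interval 26.2 to 5885), which covers counting error only. Every St2 KO library had counts, at 5.05, 7.61, 23.1 and 22.1 CPM, as did every WT library (9.72 to 21.2 CPM). Slc52a3, a riboflavin transporter gene, had 0, 3.84, 0 and 0 CPM in Il25 KO, against 39.4, 35.3, 1.10 and 23.8 CPM in St2 KO, so that St2 KO 3 lay below Il25 KO 2, and was called (-4.67 ± 0.848, edgeR adjusted p = 0.0036). The call was lost without Il25 KO 2 and 3 and without Il25 KO 1 and St2 KO 1.

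Ppfibp2, a liprin family gene, had 10.1, 0, 30.1 and 22.1 CPM against 32.0, 53.9, 57.3 and 95.4 CPM (-1.996 ± 0.326, edgeR adjusted p = 0.00201). Itpr3, a calcium release channel gene, had -0.76 ± 0.124, the zinc transporter gene Slc30a2 -2.19 ± 0.388, and Pou2f2, which encodes the lymphoid factor Oct-2, -1.58 ± 0.298. The groups of Pou2f2 overlapped, and its call was lost without Il25 KO 3 and without St2 KO 4. Both Pou2f2 and Slc30a2 lost their calls without Il25 KO 2 and 3. Rpl26, a ribosomal protein gene, had 5.05 to 7.63 CPM in Il25 KO, against 35.3 to 43.0 CPM in St2 KO (-2.55 ± 0.243), and since ribosomal protein genes share reads with pseudogenes, its value is uncertain. The same limit holds for the called neighbours Lilr4b (0.92) and Lilrb4a (1.08), near-identical immune receptor genes.

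Position was described around the knocked-out and reporter genes. All 8 called genes of chromosome 14 started within 10 Mb of Il25, where 157 of the 402 tested genes of the chromosome lie (5.1% called). Of these 8, 7 were lower in Il25 KO: Rpgrip1, Trdv4, Gm26782, Cnih1, Gm43305, Psmb5 and Wdhd1. Lgals3 (ENSMUSG00000050335, chromosome 14, 47367751 to 47386160) was higher, with 53.4, 86.8, 88.6 and 67.8 CPM in Il25 KO, against 0, 0, 4.41 and 2.73 CPM in St2 KO (5.41 ± 0.457, edgeR adjusted p = 1.09e-08). WT had 0 to 6.11 CPM, so the Il25 KO libraries stood apart from both. Within 10 Mb of Il1rl1, 0 of 70 tested genes were called, against 3 of 56 around Arg1 (5.36%) and 3 of 179 around Il13 (1.68%), where both genotypes carry the same labelled alleles. The share over all tested genes was 1.24%, and the counts around Il1rl1 and Il13 lie near it.

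In all 7 lower genes near Il25 the WT mean was nearer to St2 KO than to Il25 KO, though Wdhd1 in WT (15.7 to 42.3 CPM) reached below the St2 KO range (29.3 to 42.3 CPM) and Gm43305 in WT (21.8 to 37.8 CPM) lay above its own St2 KO range (8.52 to 17.5 CPM). Rpgrip1, a ciliary gene, had 5.41, 0.384, 2.12 and 2.18 CPM in Il25 KO against 23.9, 28.3, 26.4 and 18.4 CPM in St2 KO, with 16.7 to 33.8 CPM in WT (-3.22 ± 0.451, edgeR adjusted p = 0.000321). Trdv4, a variable segment of the T cell receptor delta locus, had 57.7, 71.5, 47.0 and 66.3 against 112, 105, 114 and 122 CPM (-0.89 ± 0.125, edgeR adjusted p = 0.000436). Cnih1, a cargo receptor gene of the secretory pathway, had -0.73 ± 0.111, the proteasome subunit gene Psmb5 -0.74 ± 0.158, and the replication gene Wdhd1 -1.31 ± 0.282. Gm26782 had -2.48 ± 0.375, and Gm43305 had 3 counts in Il25 KO against 158 in St2 KO, a ratio of 46.4 (95% counting interval 15.6 to 227.6). Psmb5 and Wdhd1 lost their calls in 6 of the 16 fits that leave a library out. Whether alleles that flank a targeted gene, the loss of the gene or both go with these values cannot be told apart in this design.

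On chromosome 1, 4 lower genes lay together beyond the 10 Mb window. Cd28 starts 20.29 Mb from Il1rl1, Gm37039 20.56 Mb, Fzd7 19.05 Mb and Gm37760 18.37 Mb. Gm37760 had 4.23 to 14.4 CPM in Il25 KO, 32.9 to 42.1 CPM in St2 KO and 9.25 to 16.1 CPM in WT (-1.97 ± 0.288, edgeR adjusted p = 0.000714), so that, as for Cd28, St2 KO was the genotype apart. Gm37039 (-1.65 ± 0.348) and Fzd7, a Wnt receptor gene with 0 to 1.54 against 3.07 to 9.43 CPM, lost their calls in 6 and 15 of the 16 fits. These 4 genes were grouped after their values were seen.

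A second cluster lay on chromosome 13. Ptdss1, an enzyme of phosphatidylserine synthesis, had 175, 166, 183 and 185 CPM in Il25 KO, against 289, 298, 248 and 303 CPM in St2 KO, and WT was at 145 to 165 CPM (-0.68 ± 0.0928, edgeR adjusted p = 0.000313). Mterf3, a mitochondrial transcription regulator on the minus strand (66906968 to 66933088), overlaps the start of Ptdss1 on the plus strand (66932830). Mterf3 had 94.1, 87.6, 74.2 and 106 against 180.1, 156, 179 and 160.1 CPM and 87.8 to 115 CPM in WT (-0.89 ± 0.123, edgeR adjusted p = 0.000348). Gm10767, on the other strand from Mterf3 and with its lower coordinate 2.05 kb from that of Mterf3, had -1.50. Since the libraries keep no strand, reads of these 3 neighbours may be shared. In all 3 the St2 KO libraries were the higher ones and the Il25 KO mean was nearer to WT.

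**Figure D3:**
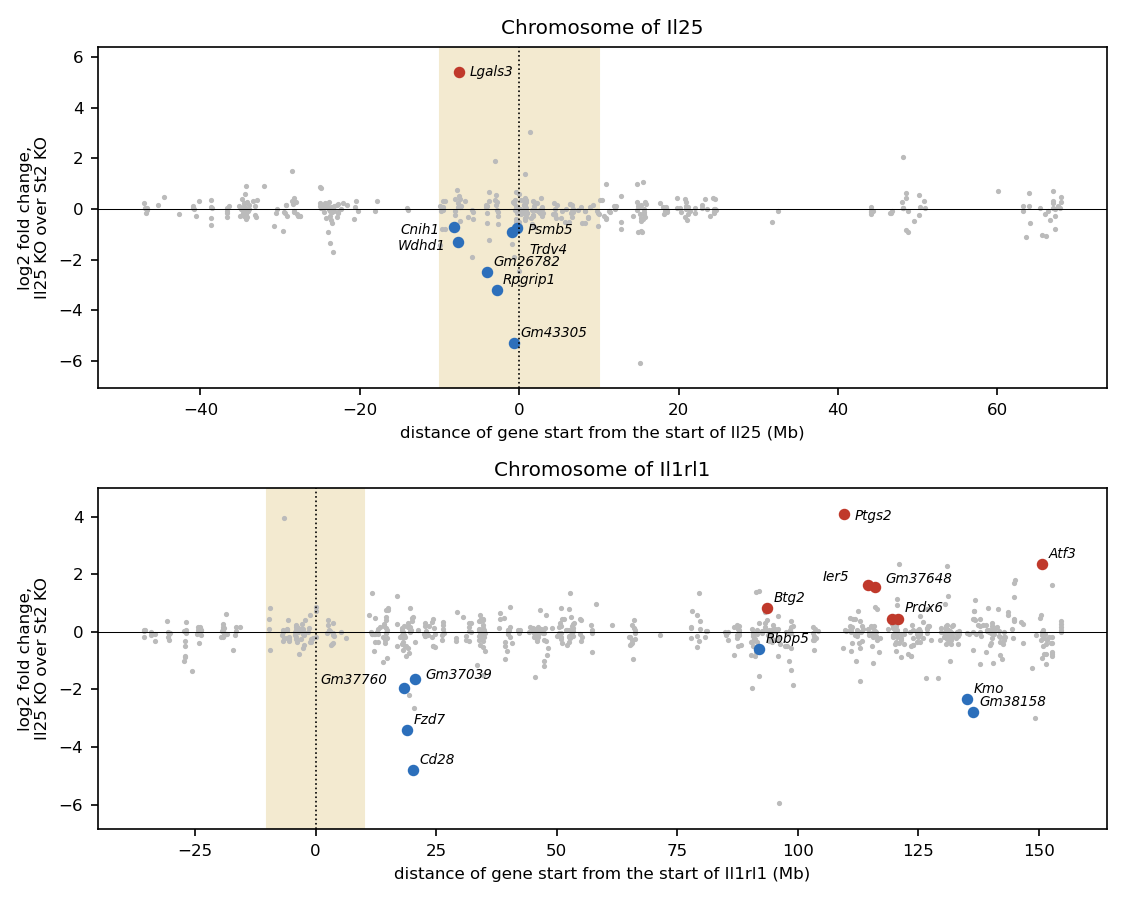
Log2 ratio of Il25 KO to St2 KO for tested genes by distance of their start (Mb) from the start of Il25 (top) and Il1rl1 (bottom), with called genes in red (higher) and blue (lower) and the 10 Mb window shaded. All 8 called genes of the upper panel lie in the shaded window, and 0 in that of the lower panel.

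Most other gene groups held 0 or 1 called gene. Of the 34 pathway lists, those of NF-kB inhibitors and targets, AP-1 and the EGR and NR4A genes had 9, 7 and 5 called members, and no other had more than 3. The share called over all tested genes was 1.24%. The lists together hold 43 of the 146 called genes, 40 higher and 3 lower. Alarmin and IL-1 family receptors had 0 called of 11 tested (median 0.0694), TNF superfamily genes 0 of 19, and ILC2 lineage factors 1 of 17.

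Among pathway lists, those of cell cycle and MHC class II genes had the medians farthest from 0 without a call. Of 36 tested cell cycle genes 28 were below 0 and 0 were called, with a median of -0.844. The mean log2 CPM of this list was 2.90 to 2.97 in Il25 KO 2, 3 and 4 but 4.58 in Il25 KO 1, and it was 2.90, 5.53, 4.48 and 3.67 in St2 KO 1 to 4, so the groups overlapped. Of 10 MHC class II genes 8 were above 0 and 0 were called (median 0.643). H2-Aa had 22.4, 91.8, 239 and 8.70 CPM in Il25 KO, against 42.8, 31.1, 61.7 and 40.5 CPM in St2 KO, with Il25 KO 3 the highest library, and Cd74 130.2, 218, 493 and 139 against 60.9, 84.0, 208 and 211 CPM. Il25 KO 3 is 1 of the 2 libraries with more dendritic cell markers. Of 16 tested B and plasma cell markers 14 were above 0 (median 0.684), with 1 called lower, Cd79b, and Jchain, the joining chain of secreted antibodies, at 504, 417, 653 and 492 against 33.0, 366, 464 and 397 CPM, lowest in St2 KO 1.

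**Figure D4:**
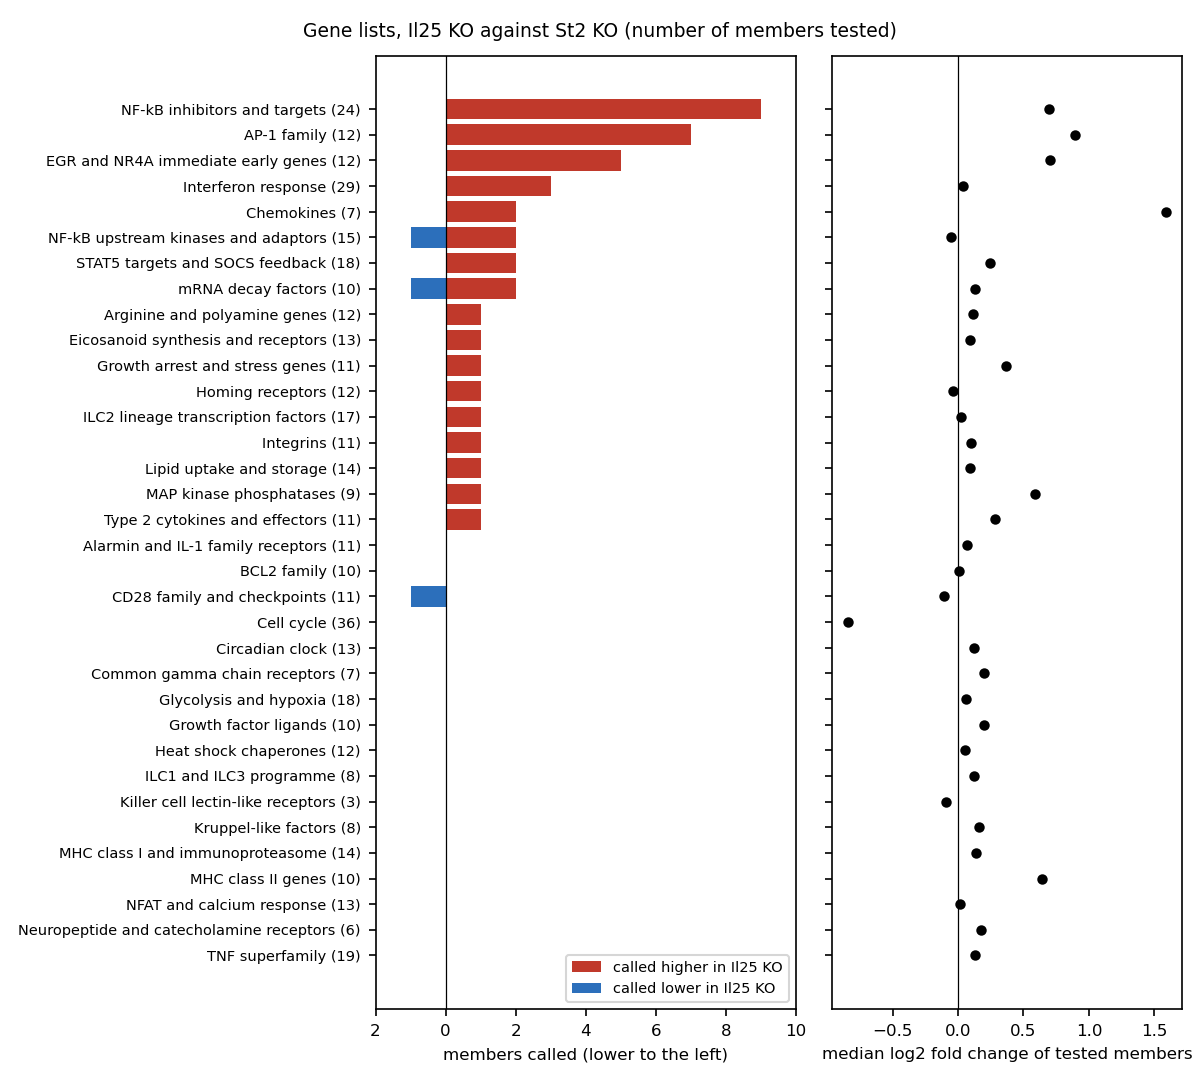
Number of called members (left, higher in Il25 KO to the right and lower to the left of 0) and median log2 fold change of tested members (right) for 34 pathway lists, with the number of members tested in brackets. The lists of NF-kB inhibitors and targets, AP-1 family and EGR and NR4A genes have the most called members, 9, 7 and 5, all higher in Il25 KO.

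WT levels placed the higher genes mostly on the side of Il25 KO. For 63 of the 100 higher genes the WT mean was nearer to Il25 KO and for 37 nearer to St2 KO, and in 56 all 4 WT libraries were above all 4 St2 KO libraries. Of the 46 lower genes the WT mean was nearer to St2 KO in 35 and to Il25 KO in 11. Among the 9 called genes of the list of NF-kB inhibitors and targets WT was nearer to Il25 KO in 8, and among the 7 AP-1 genes in 4. WT lacks the Yarg allele and has code set TT in place of TY. All 4 WT libraries read as male (Xist 0, Ddx3y 709 to 1171), while the TY libraries of the knockouts read as female. WT values, here and above, are therefore given as levels without a test.

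The comparison was also fitted within each code set. All 146 genes had the same sign in TS (2 Il25 KO against 2 St2 KO libraries, read as male) and in TY (2 against 2, read as female), which their selection on the same libraries largely fixes. Fitted on 1 set alone, 36 genes were called in TS, 32 of them among the 146, and 29 in TY, 24 of them among the 146. Zfp36, Nfkbia, Nfkbid, Nfkbiz, Tnfaip3, Csf2, Fosb, Gadd45b, Lgals3 and Cd28 were among those called in each set alone. No gene was called in the test of a difference between the sets (0% of 11742 by edgeR, 572 genes at an unadjusted p under 0.05), DESeq2 called 1, Zcchc24, and without St2 KO 2 the edgeR test called 2, Igkc and Igha.

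**Figure D5:**
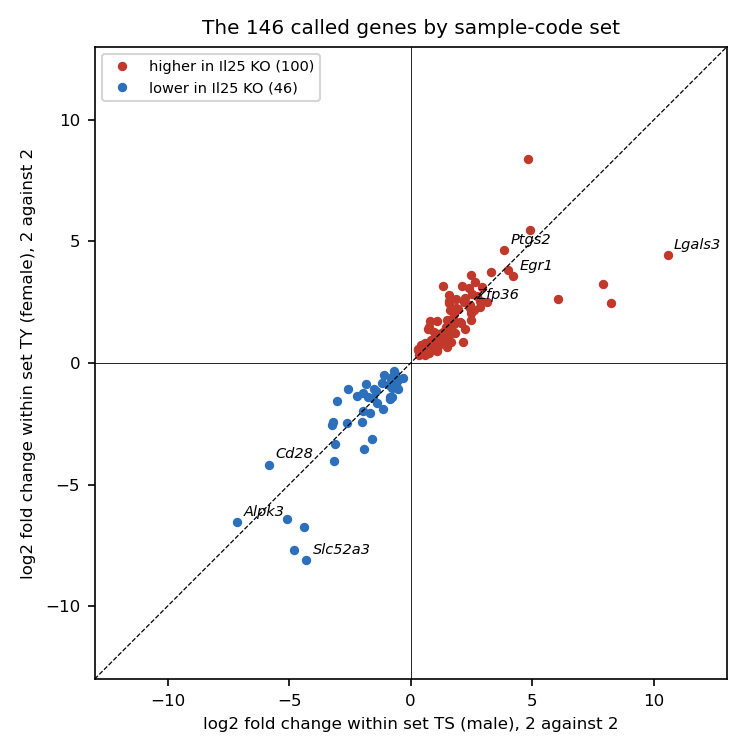
Log2 ratio of Il25 KO to St2 KO within set TS (horizontal) and set TY (vertical) for the 146 called genes, each from 2 against 2 libraries, with the line of equality dashed. All points lie in the lower left or upper right part of the plot, which the selection of the genes on both sets largely fixes.

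Within Il25 KO the libraries did not carry the higher genes equally. Il25 KO 2 was the highest of its 4 libraries in 51 of the 100 higher genes and Il25 KO 3 in 40, while Il25 KO 4 was the lowest in 55 and Il25 KO 1 in 32. In St2 KO, replicate 4 was the lowest library in 50 of the 100. The mean log2 CPM of the NF-kB list was 7.14, 7.80, 7.69 and 7.32 in Il25 KO 1 to 4 and 6.70, 6.59, 6.69 and 6.67 in St2 KO 1 to 4. The 2 Il25 KO libraries with the highest values of this list had the largest sums of macrophage and dendritic cell markers. Most of these sums came from Zbtb46 and Xcr1, and the part of these libraries was not tested. The list was chosen with earlier results known and holds 9 genes called on these same libraries, which partly fixes the order of the groups.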

How the data were processed

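RNA from ILC2 sorted by flow cytometry from the first 5 cm of the small intestine was made into unstranded Nextera XT libraries, per the labels' protocols. The authors deposited 1 table of read counts per gene for the 16 libraries. The submitters' processing notes name FastQC 0.11.3, STAR 2.4.2a, Picard 1.134, HTSeq 0.4.1 and build GRCm38, with no settings.

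Of 53471 gene rows, 6 with a repeated identifier were left out. Genes without a symbol hold 0.184% of counts. The counts were fitted with edgeR 4.0.16 in R 4.3.3 (quasi-likelihood F test with robust estimation, TMM scaling, filterByExpr, terms for genotype and code set, 10 residual degrees of freedom), with Benjamini-Hochberg adjustment over all tested genes. Log2 CPM used a prior count of 2, and gene positions came from GENCODE M21. Counting intervals are exact at 95% and cover counting error only.

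The libraries, members and gene lists were chosen with earlier results of these data known. Genes named are the targeted and reporter genes, the 15 called genes of smallest p in each direction (average log2 CPM not under 3, no Gm, Rik or pseudogene names), as many as 6 called members per list, called genes within 10 Mb of Il25 or Il1rl1, and the ILC2 markers. Other genes were picked from the lists or by position after their values were seen. On data simulated from these counts (3 runs of 11488 genes), the fit recovered 58.3% of 2-fold and 86% of 4-fold changes, and 8.26% of its calls were false. Alternatives were other scalings, filters and terms, DESeq2 1.42.0, each code set alone, a replicate block and leaving out libraries.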

Additional observations from a re-analysis of the deposited data

Results flagged for a closer look

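In groups of 4 libraries, the gap from the highest or lowest library to its nearest neighbour was divided by the range of the group on the log2 CPM scale, and shares above Dixon's 95% critical value are given for 11 of 222 groups (77 named genes and 34 pathway lists), while chance alone flags about 1 in 20 groups. For Id2, St2 KO 4 had 516 CPM against 400 to 410 CPM in its partners (share 0.9001). Il25 KO 1 was low in Zc3h12a, at 59.5 CPM against 128 to 142 CPM (0.878), and in Dusp8, at 6.49 against 16.7 to 19.5 CPM (0.854), and it was the high library of the cell cycle list, with a mean log2 CPM of 4.58 against 2.90 to 2.97 (0.958). Il25 KO 4 was high in Pou2f2, at 19.2 against 10.4 to 11.5 CPM (0.8295). Slc52a3 was detected in Il25 KO 2 alone of its genotype, at 3.84 CPM (share 1), and was low in St2 KO 3, at 1.10 against 23.8 to 39.4 CPM (0.841). The 1 count of Alpk3 in Il25 KO, in replicate 4, gave a share of 1. Among lists, the CD28 family and checkpoint genes were high in St2 KO 4, with a mean log2 CPM of 7.06 against 6.53 to 6.58 (0.899). The arginine and polyamine genes were low in St2 KO 2, at 5.36 against 5.67 to 5.73 (0.856), and the MHC class I and immunoproteasome genes high in Il25 KO 3, at 8.30 against 8.06 to 8.10 (0.873).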

How the results depend on the processing

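In 29 alternative fits 0 of the 146 called genes changed sign, while the number called did change. DESeq2 called 246 (166 higher, 80 lower), the 8 libraries alone 96 (28 lower), set TS alone 36 (27 and 9), set TY alone 29 (22 and 7), and the fit without Il25 KO 2 and 3 called 69 (44 and 25). Leaving out 1 of the 16 libraries gave 80 to 168 called, 52 to 130 higher and 25 to 50 lower. The replicate block gave 139 called genes (95 and 44). Same-numbered deviations from group means correlated at 0.00361, 0.00158, 0.0991 and 0.122, and only replicate 4 correlated best with its own number. With code set means also removed, replicates 1 and 2 both gave -0.123, and replicates 3 and 4 both gave 0.0312. Only 3 and 4 then correlated best with their own number, and the equal values of a pair are not separate results. Such values cannot decide whether equal numbers mark a shared animal or day. Other scalings, filters and terms gave 106 to 150 called, and edgeR's legacy mode 100. The test between code sets called 0 genes, but 1 with DESeq2 and 0 to 2 with 1 library left out. Among the genes named by rule, signs turned in 6 ILC2 genes that were not called: Arg1 to 0.23 in TS alone, 0.12 without Il25 KO 2 and 3 and -0.21 to 0.15 with a library left out, Il13 to -0.79 in TY alone, -0.77 and -0.43 to 0.60, Il5 to -0.79 in TY alone, -0.78 and -0.67 to 0.95, Gata3 to -0.0448 in TS alone and -0.0281 to 0.0883, Klrg1 to 0.0535 in TS alone and -0.15 to 0.00136, and Ptprc to 0.13 in TS alone and -0.0632 to 0.0353. The causes were not tested. With a median SE of 0.213 on the log2 scale over tested genes, small differences could not be resolved, and 1321 genes had an unadjusted p under 0.05.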
